A study of Caenorhabditis elegans with 2 samples.

Results

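The 6 genes described here encode the core of the microRNA pathway of Caenorhabditis elegans, and the data show where EFL-1::GFP lay at their promoters in first-stage (L1) larvae. They are pash-1, drsh-1, dcr-1, alg-1, alg-2 and ain-1, chosen by symbol from the 19973 protein-coding genes of the WBcel235 annotation. The rule that picks them uses no measured value, but the set was proposed with earlier results of these data known. EFL-1 is an E2F-family transcription factor of the DREAM complex, known mainly as a repressor of cell cycle and developmental genes. Chromatin immunoprecipitation and sequencing was done on whole larvae of strain YL424, males and females pooled, in 1 group of 2 libraries labelled biological replicates 1 and 2. The strain carries unc-119(ed3) and the array vrIs68, in which the efl-1 promoter and 3' UTR drive EFL-1 fused to GFP and FLAG beside a working unc-119 gene. The labels give no age beyond the L1 stage and no other genotype, stage or treatment, so all comparisons are between loci and none is between conditions. EFL-1 was thus read from a tagged transgene, and whole animals mix all cell types of the larva.

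In the microRNA pathway, primary transcripts are cleaved in the nucleus by the Microprocessor, made of the RNase Drosha and its RNA-binding partner. Dicer then cuts the hairpin to a short duplex, and an Argonaute protein keeps a single strand as its guide. The Argonaute and a GW182-type partner silence messenger RNAs that pair with the guide, largely by removing the poly(A) tail and the cap. In worms this pathway was first found through the timing of larval development.

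A gene was counted as having a promoter peak when a summit fell in the stretch that begins 500 bp before and ends 100 bp after any annotated start of its transcripts. The score is the authors' own value of a peak, deposited without a stated scale, and it is compared only within a list. The authors' reproducible list, drawn from both replicates, had 3824 peaks, with scores of 35.7 to 7157 and a median of 101. The pooled list held 28550 entries, the replicate 1 list 30000 and the replicate 2 list 28686, and most of these are background by their q-values, since the −log10 q exceeded 2 at 5262, 1196 and 12800 of them. Read counts are not part of the lists, which leaves the sequencing depth unknown, and how reads of near-identical genes were placed is not given in the sources used here.

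Of the 6 genes, 2 had a reproducible promoter peak, pash-1 and dcr-1, against 14.8% of all protein-coding genes. The gene alg-2 had a reproducible peak inside the gene but outside its promoters. No reproducible summit lay within 2500 bp of drsh-1, alg-1 or ain-1. The peaks differed widely in strength, and that of pash-1 was 60.7 times as strong as that of dcr-1 and 20.3 times as strong as that of alg-2. With so few genes, the count of 2 of 6 is given as a description and was not tested.

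**Figure D1:**
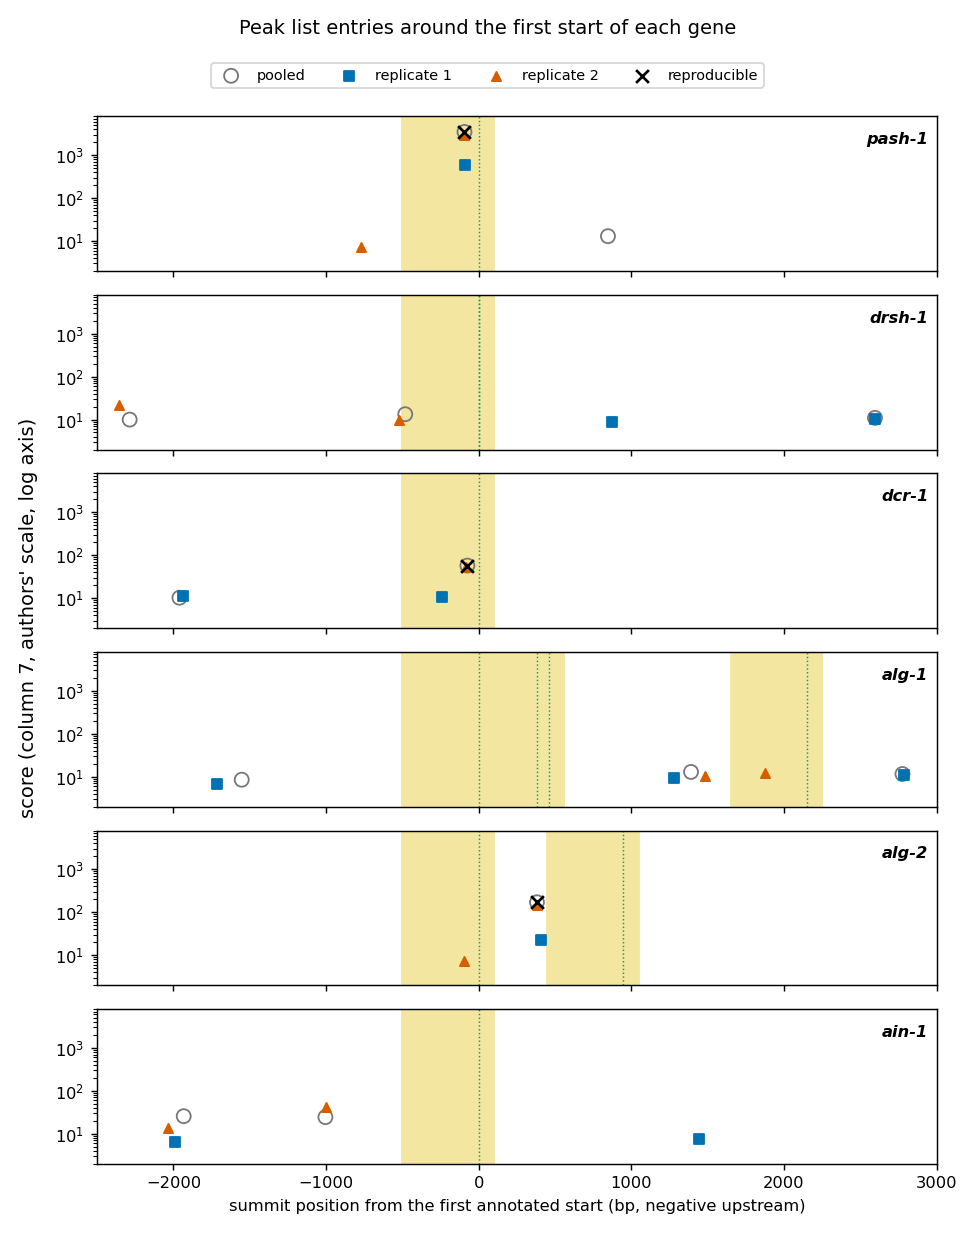
Summits of all entries of the 4 peak lists around the 6 genes, by distance in bp from the first annotated start (negative upstream) and by score on the authors' scale (log axis). Dotted lines are transcript starts and shaded bands are the promoters. The reproducible peaks (crosses) lie in the promoters of pash-1 and dcr-1 and between the starts of alg-2, and none is near the other 3 genes.

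Of the Microprocessor genes, pash-1 had a strong reproducible promoter peak and drsh-1 had none. The gene pash-1 (WBGene00011908, chromosome I 10598673 to 10606621, plus strand) encodes the RNA-binding partner of Drosha, known as DGCR8 or Pasha in other animals. Its peak at chromosome I 10598357 to 10598766 scored 3473 and ranked 25 of the 3824 reproducible peaks. The same entry scored 589 in the replicate 1 list, where it ranked 12, and 2891 in the replicate 2 list, where it ranked 29. By rank, both replicates therefore placed pash-1 among their strongest entries. Its −log10 q was the highest of each list (3.22 and 4.22), a value that weaker entries shared.

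The pash-1 summit was at −93 bp from the first of its 2 annotated starts, and the replicate summits were 6 bp apart. It was intergenic, in the gap of 183 bp between the end of the upstream gene T22A3.6 and pash-1, and it lay in the promoter of no other protein-coding gene. Sharing is common otherwise, since 45.6% of the 2947 genes with a promoter peak had a strongest summit that also lay in another promoter. The peak was 410 bp wide, and 1.28% of reproducible peaks were wider. Among genes with a promoter peak pash-1 ranked 29 by score, just below gcn-1 (3561), a regulator of translation under amino acid shortage, and just above F32A11.1 and hpr-17, a checkpoint clamp loader gene, which share a peak (3426).

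The body of pash-1 also holds a microRNA gene, cel-mir-1828, and the summit was at −1883 bp from its nearer annotated start. Other entries near pash-1 were weak. The pooled list had one in an intron at 847 bp from the start with a score of 13.0, and the replicate 2 list had one at −770 bp with a score of 7.39. The promoter peak was thus the single strong site of this gene in every list.

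The gene drsh-1 (WBGene00009163, chromosome I 9781324 to 9785724, minus strand) encodes Drosha, the RNase that pash-1's product accompanies, and had no reproducible peak. Its promoter held an entry in the pooled list alone, at −481 bp, with a score of 13.3 and a −log10 q of 0.429. The pooled list has an entry of any strength in the promoters of 33.2% of genes, so an entry of this kind is common. In the replicate 2 list a summit with a score of 9.71 lay at −523 bp, just outside the promoter, and the replicate 1 list had none there. Partners in 1 complex thus had scores of 3473 and 13.3 on the same pooled scale.

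Both of those drsh-1 summits lay in coding exons of tba-1, an alpha tubulin gene on the same strand that ends 56 bp upstream of drsh-1. The start of tba-1 itself had no reproducible peak either (this gene was examined after the values of drsh-1 were seen). Its promoter entry scored 9.99 in the pooled list with a −log10 q of 0.131 and 22.0 in the replicate 2 list, and the replicate 1 list had none. Whether the 2 genes are transcribed together was not examined.

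The Dicer gene had a weak peak in a promoter that it shares. The gene dcr-1 (WBGene00000939, chromosome III 8071967 to 8080281, minus strand) encodes the single Dicer of the worm, which makes both microRNAs and small interfering RNAs. Its peak at chromosome III 8080187 to 8080522 scored 57.2, which is 0.566 times the median reproducible peak, and ranked 2850 of 3824. The entry scored 52.6 in the replicate 2 list, with a −log10 q of 4.22. In the replicate 1 list the promoter entry scored 10.8 with a −log10 q of 0.383, and its summit was 157 bp from that of replicate 2.

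The dcr-1 peak thus rested on replicate 2. Of the 426 genes scoring no higher than dcr-1, 0 had promoter entries that passed a −log10 q of 2 in both replicates. That share was 46.7% over all 2947 genes with a promoter peak. Fewer genes had a passing promoter entry in replicate 1 (1386) than in replicate 2 (4934). How many of the 426 passed in replicate 2 alone was not counted. Among the 2947 genes dcr-1 ranked 2522. Just above it was rpa-2 (57.25), which encodes a subunit of the single-stranded DNA binding protein RPA.

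The dcr-1 summit was at −74 bp from the single start of dcr-1 and at −274 bp from the start of apc-2, a subunit gene of the anaphase-promoting complex that runs the other way, 347 bp from dcr-1. It was nearer to dcr-1 than most, since the median summit of bound genes was at −172 bp from the nearest start (quartiles −278 and −104). The replicate 1 summit lay nearer to apc-2, at −240 bp from dcr-1 and −108 bp from apc-2. Which of the genes the peak belongs to was not tested.

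Sequence around the summits was searched for E2F cores (TTCCCGC or TTCGCGC or TTGGCGC or TTGCCGC) and for CHR cores (TTTGAA or TTCGAA), the element read by the DREAM subunit LIN-54, on both strands. The stretches with the cores within 50 bp of the dcr-1 summit, and those around the alg-2 peak described next, are printed because these peaks are the weaker ones. They are 30 bases each on the plus strand of ce11, from the RefSeq copy of that assembly, with the core in capitals.
dcr-1 E2F core, chrIII:8080320-8080349: ataaaaaataaTTGCCGCtgactgccccgt
dcr-1 CHR core start side, chrIII:8080296-8080325: aattgataatgTTCAAAaattacaataaaa
dcr-1 CHR core far side, chrIII:8080386-8080415: tcatgggaacaTTCAAAagacggaggaaaa
alg-2 CHR core upstream, chrII:873513-873542: cccctatacaaTTCAAAttccccacgctcc
alg-2 CHR core downstream, chrII:873654-873683: tcgcaatgactTTTGAAgccgattttggag

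Within 50 bp of its summit, dcr-1 had 1 E2F core, 21 bp from the summit on the side of the gene, and 2 CHR cores, 45 bp away on either side. A further CHR core at dcr-1, 80 bp from the summit, is not printed. An E2F core lay within 50 bp of the summit at 16.8% of all reproducible peaks and in 3.34% of windows of the same length centred 100 bp upstream of all gene starts. A CHR core did so at 34.4% and 32.9%, so that a CHR match alone sets few windows apart. No core of either kind lay within 50 bp of the alg-2 summit, and 2 CHR cores lay 67 and 74 bp from it.

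At pash-1, the strongest of the 3 peaks, none of the 4 E2F cores lay within 100 bp of the summit, and a single CHR core lay 44 bp from it, on the side away from the gene. Among the strongest 100 reproducible peaks an E2F core lay within 50 bp at 32% and a CHR core at 74%. A match is a description of letters and not a measured site. Over the whole promoter of the first start, an E2F core was present at dcr-1 alone of the 6 genes, beside 17.4% of all genes, and a CHR core at every member except alg-2, beside 89.6% of all genes.

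**Figure D2:**
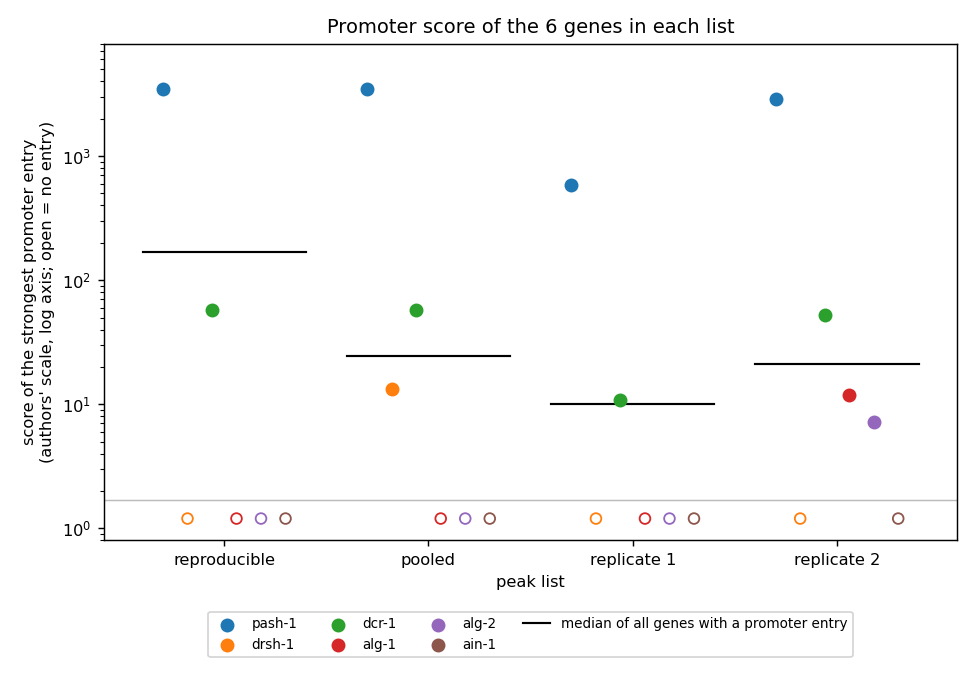
Score of the strongest promoter entry of each gene in each of the 4 peak lists (authors' scale, log axis), with an open circle below the grey line where there is none. Black bars are the median over all genes with a promoter entry in that list. The points of pash-1 are far above the bar in all 4 lists. The dcr-1 point is below it in the reproducible list and near it in the replicate 1 list (10.8 against 10.1). In the pooled and replicate 2 lists dcr-1 is above the bar (57.2 against 24.5, and 52.6 against 21.1).

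The Argonaute genes among the members, alg-1 and alg-2, are paralogs with overlapping roles in the microRNA pathway, and their entries differed. The gene alg-2 (WBGene00000106, chromosome II 873212 to 879885, plus strand) had a reproducible peak at chromosome II 873513 to 873673 that scored 171 and ranked 1269 of 3824. Its summit was in an intron, at 382 bp downstream of the first start and at −566 bp from the second start. It therefore fell outside both promoters, by 282 bp and by 66 bp. It lay in the promoter of no other protein-coding gene, and a short non-coding RNA gene, T07D3.12, starts close by on the same strand, with the summit at −58 bp from its start.

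Both replicates had this alg-2 entry, with scores of 23.1 in replicate 1 and 147 in replicate 2 and summits 29 bp apart. Its −log10 q was 1.79 in replicate 1 and 4.22 in replicate 2. The peak was 161 bp wide, against 336 bp at 54.6% of reproducible peaks, and 9.73% were narrower. Of the 598 reproducible summits inside a protein-coding gene and outside every promoter, it ranked 70 by score, and their median was 64.3. In the promoter itself, the replicate 2 list had an entry at −94 bp with a score of 7.22, and the other lists had none.

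The gene alg-1 (WBGene00000105, chromosome X 13949110 to 13956261, plus strand) has 4 annotated starts and had no reproducible peak at any of them. Its single promoter entry was in the replicate 2 list, at −274 bp from the last start, within the 5' UTR of longer transcripts, with a score of 11.9. The pooled list had no entry in its promoters, and its strongest entry over the gene, with a score of 14.1 and a −log10 q of 0.521, was in the 3' UTR. The nearest protein-coding gene upstream, elt-3, is 7893 bp away. All pooled entries of alg-1 were thus below the lowest reproducible score of 35.7, which is on the pooled scale.

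The gene ain-1 (WBGene00015547, chromosome X 16613451 to 16616871, plus strand) encodes a GW182-type protein that binds the microRNA Argonautes. No list had an entry in its promoter. A pair of entries lay farther upstream in the pooled list, at −1932 bp with a score of 25.7 and at −1004 bp with a score of 24.4, with −log10 q values of 2.46 and 2.31. The nearer one scored 41.0 in the replicate 2 list, and the replicate 1 list had no entry there. These were the strongest non-reproducible pooled entries within 2500 bp of the 6 genes.

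Both members on the X chromosome, alg-1 and ain-1, thus lacked a peak. Promoter peaks were fewer there for all genes, at 6.37% of 2731 genes against 16.1% of 17242 on the autosomes. Counting reproducible summits anywhere from 500 bp upstream of a gene to its end, 3 of the 6 members had one, beside 16.9% of all genes. An entry at any q lay in a promoter of 3 members in the pooled list, beside 33.2% of all genes, of 2 in the replicate 1 list, beside 30.1%, and of 4 in the replicate 2 list, beside 33.9%. Entries that passed a −log10 q of 2 in both replicate lists were present at pash-1 alone, beside 6.9% of all genes. The replicate 2 list by itself had such an entry at pash-1, dcr-1, alg-1 and alg-2, beside 24.7% of all genes, and the replicate 1 list at pash-1, beside 6.94%.

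**Figure D3:**
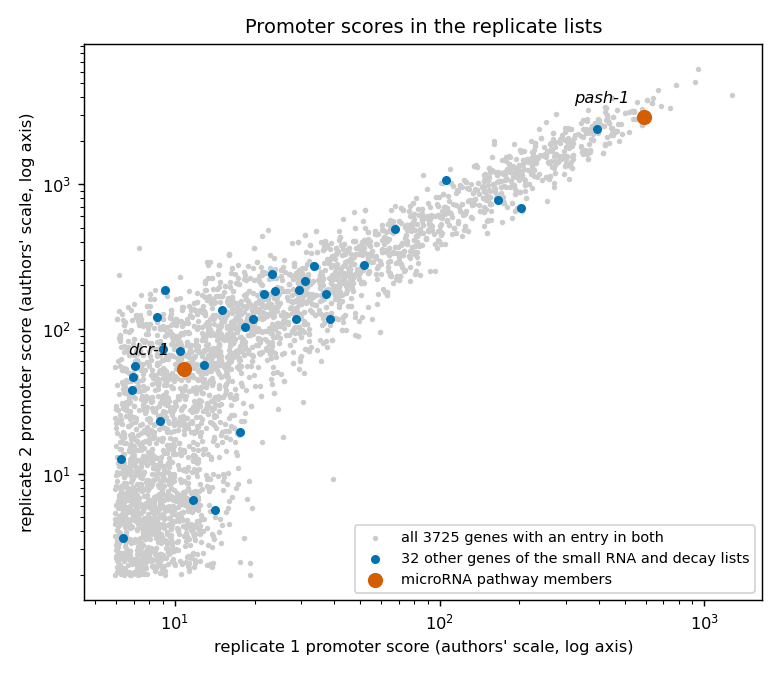
Promoter score in the replicate 1 list against that in the replicate 2 list (authors' scale, log axes) for the 3725 genes with a promoter entry in both. Orange points are pash-1 and dcr-1 and blue points are 32 other genes of the small RNA and decay lists. The pash-1 point (589 and 2891) is at the upper end of the cloud and dcr-1 (10.8 and 52.6) is in its broad lower part.

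Other genes of the pathway were read from 5 lists chosen with earlier results of these data known. Of the 72 genes matched in them, 29 (40.3%) had a reproducible promoter peak, beside 14.8% of all genes. Entries that passed a −log10 q of 2 in both replicates were present at 12 (16.7%), beside 6.9% of all genes. Over all genes with a promoter peak, 46.7% had such entries. None of the 29 scored above pash-1, and 25 scored above dcr-1. Of all 2947 genes with a promoter peak, 99.0% scored below pash-1 and 14.4% below dcr-1. For 15 of the 29 the summit also lay in the promoter of a neighbour, beside 45.6% of all 2947 genes with a promoter peak. These shares are descriptions and were not tested.

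Among the matched partners and regulators of the Argonaute complex, 6 of 12 had a promoter peak, with a median score of 162. The highest was vig-1 (2808), whose product was found in the RNA-induced silencing complex, and the replicates gave it 392 and 2417. It was followed by tsn-1 (197), a nuclease gene of that complex, lin-28 (171), whose product blocks let-7 processing, and rack-1 (154), a ribosome-associated scaffold gene. Of tsn-1, lin-28 and rack-1, only rack-1 passed a −log10 q of 2 in both replicates, and lin-28 had no replicate 1 promoter entry. The remaining bound genes of this list, kin-3 (126), a casein kinase gene, and car-1 (53.3), an RNA-binding protein gene, are named after their values were seen. Thus vig-1 was nearest to pash-1 in strength. The other 5 matched genes ranged from 53.3 to 197, beside a median of 169 over all bound genes. The planned gene daf-21 matched no symbol and is not counted here. Its current symbol is hsp-90, which had a reproducible promoter peak with a score of 566, between those of vig-1 and tsn-1. Its value was seen before it was named. The second GW182-type gene, ain-2, named here after its values were seen, had no reproducible promoter peak, like ain-1.

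The machinery that microRNA complexes recruit to remove the tail and the cap had promoter peaks at 12 of 19 genes, with a median of 206. The highest scores were at patr-1, a decapping activator (1185), whose summit also lay in the dna-2 promoter, at panl-2, a deadenylase gene (953), at ntl-11, which encodes a subunit of the CCR4-NOT deadenylase complex (562), and at edc-4, a decapping cofactor gene (298). Genes for microRNA turnover and RNA tailing had a peak at 1 of 8, disl-2, an exonuclease gene whose product degrades tailed let-7 precursors (217), with T24G10.2 sharing the summit. That share, 12.5%, is near the share of all genes.

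Of the other Argonaute genes, 2 of 18 had a promoter peak (11.1%, near the share of all genes). They were wago-4 (199), an Argonaute of inherited silencing, whose summit also lay in the F58G1.2 promoter, and rde-1 (51.6), the Argonaute of the response to foreign duplex RNA, with trpp-6 sharing the summit. Neither passed a −log10 q of 2 in both replicates, and rde-1 had no replicate 1 promoter entry. Counting alg-1 and alg-2, 2 of 20 Argonaute genes had a promoter peak. Of 15 further listed genes of other small RNA pathways, Dicer partners among them, 8 had a peak, with a median of 179, above the 57.2 of dcr-1. The highest were rde-4 (894), an RNA-binding partner of Dicer, rrf-3 (326), an RNA-dependent RNA polymerase gene, rde-8 (261) and rde-10 (209), with cox-14, emb-27, ZC477.3 and rnp-6 sharing their summits.

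**Figure D4:**
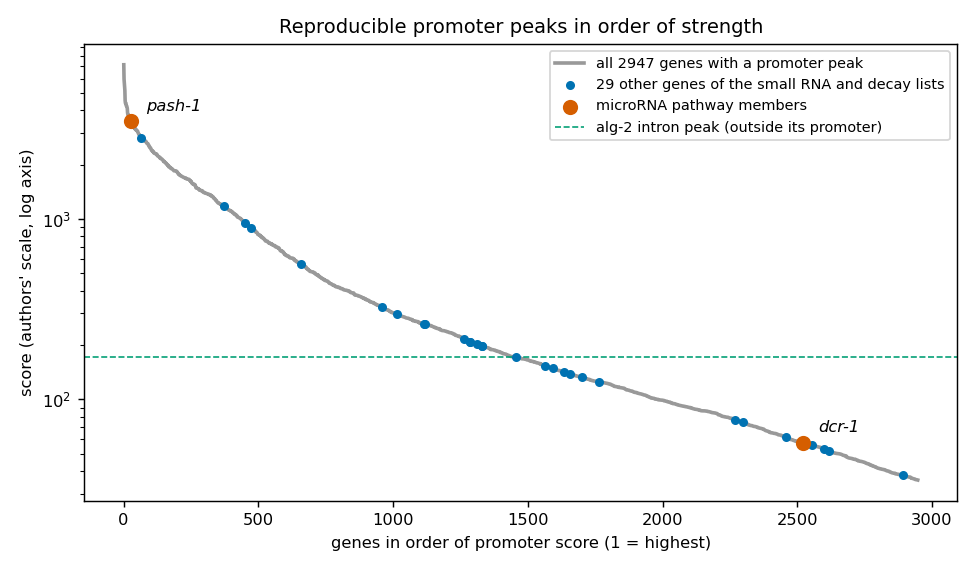
The 2947 genes with a reproducible promoter peak in order of score (authors' scale, log axis), with pash-1 and dcr-1 in orange and 29 other genes of the small RNA and decay lists in blue. The dashed line is the alg-2 intron peak (171). The pash-1 point is at rank 29 near the top and dcr-1 at rank 2522 near the end.

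**Figure D5:**
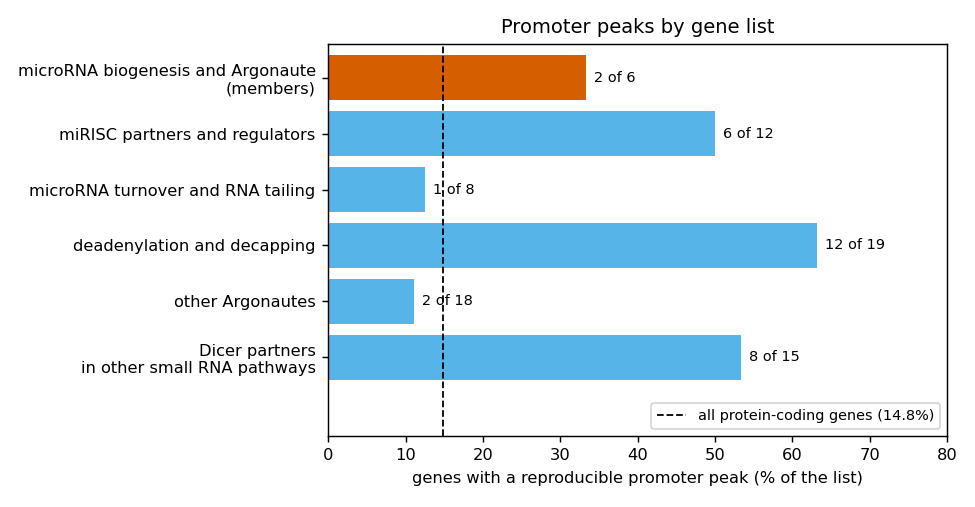
Percent of each gene list with a reproducible promoter peak, with the number of genes beside each bar and the share of all protein-coding genes (14.8%) as a dashed line. The lists of turnover genes and other Argonautes lie below the line and the members (2 of 6) and the other lists above it.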

How the data were processed

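The data were peak lists in the ce11 build from EFL-1::GFP chromatin immunoprecipitation in L1 larvae, 2 libraries of 1 group (size range 150 to 350 bp, per the labels). Per the text files deposited with the libraries, entries were called on each replicate and on both alignments pooled, against a control, and the reproducible list was derived from these by an irreproducible discovery rate (IDR) threshold. The caller, the aligner and the threshold are not given in the sources used here. The score in column 7 was deposited by the authors without a stated scale. The −log10 q in column 9 and the summit offset in column 10 are the authors' other deposited values. Lists in the older build were not used here, and no coordinates were converted.

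Genes and starts came from Ensembl release 115 (WBcel235, the ce11 sequence). Of the symbols of the other lists, 11 matched no gene by symbol or RefSeq synonym and were left out. The lists held synonyms, so a symbol left out is not always a gene missing from the counts. Among the 11 was daf-21, an older symbol of the annotated gene hsp-90, which had a promoter peak (566) and is missing from the counts. Genes were assigned with Python 3.11.15 and pandas 2.3.3. A gene's score was that of its strongest promoter entry, and operons were not considered. The assignment was tested on simulated summits first. With 1 group of peak lists, no statistical test was run, and counts stand beside the share of all genes.

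The members, lists and rules were chosen with earlier results of these data known. Named were all members, the 4 highest-scoring bound genes of each other list, genes sharing a member's summit, and genes next to a member by score. Flanking genes, neighbours sharing the summits of list genes, ain-2 and hsp-90 were named after values were seen. Alternatives were other promoter lengths, the nearest or first start, overlap in place of the summit, stricter peaks, either replicate list alone, and other q and core windows.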

Additional observations from a re-analysis of the deposited data

How the results depend on the processing

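The count of 2 of 6 members with a promoter peak was 1 in the stronger 50% of reproducible peaks and 1 among peaks supported in each replicate, since dcr-1 was lost, and the corresponding shares of all genes were 9.85% and 6.93%. Leaving out a replicate, with the strongest entries of the other replicate list taken as peaks, it was 1 to 2. The corresponding shares were 11.8% of all genes without replicate 2 and 14.8% without replicate 1. Without replicate 2 dcr-1 was lost, since its replicate 1 promoter entry (rank 6127 of 30000) was not among the strongest entries taken. The count was 3 with a promoter of 1000 bp upstream to 200 bp downstream (17.9% of all genes), which adds alg-2. It was also 3 with any overlap of the peak (15.9%), which adds the same gene. It was 2 with a promoter of 250 bp upstream to 50 bp downstream (10.1%), the nearest start (11.4%) or the first start only (13.8%). The gene pash-1 had a peak in all 9 alternatives. The count of 29 other pathway genes was 12 among peaks supported in each replicate, 21 to 29 with a replicate left out, and 22 to 34 in the others. As shares of the 72 genes these were 16.7%, 29.2 to 40.3% and 30.6 to 47.2%, beside the shares of all genes given above for the same settings. The percentile of pash-1 in its list, 99.92 in the pooled one, was 99.90 to 99.96 with a replicate left out, and that of dcr-1, 90.02, was 79.6 to 90.04. The count of 1 member supported in each replicate list was 1 at a −log10 q above 1.3 and above 3. Of the 3 members with a reproducible peak, those with a CHR core numbered 2 within 50 bp of the summit, 0 within 25 bp and 3 within 100 bp, and those with an E2F core 1 in each case. No paired analysis was possible because the series holds 1 group. The lists hold no read counts, and with 2 libraries the spread between animals could not be estimated.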
